A study of Drosophila melanogaster with 5 samples.

Results

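The genes patched (ptc), cubitus interruptus (ci), naked cuticle (nkd) and Ptr (patched-related) were followed through early development of Drosophila melanogaster. They were taken by name from the spots of a cDNA library on nylon membranes, with control spots left out, and they are 4 of the 259 genes printed there, beside 36 introns and 15 intergenic regions. Wild-type embryos of the Canton S strain, for which the labels give no treatment, were selected by hand at 5 intervals, named for their stages: the syncytial blastoderm (S2-3, the reference), the cellular blastoderm (S5), the gastrula (S6-7) and then S8-9, followed by S10-12. Each interval was 1 deposited sample of pooled whole embryos. Its amplified and 32P-labeled cDNA was hybridized to 4 membranes named A, B, C and D, 20 membranes in all. The library had been subtracted to enrich transcripts of the gastrula over the syncytial blastoderm, so genes on it were preselected in that direction. The 4 membranes of an interval belong to 1 deposited sample, and no separate embryo collections are labeled for them. Every error and p-value here therefore measures the spread between membranes and not between embryo collections. The hybridizations of an interval and the interval itself cannot be told apart.

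In the Hedgehog pathway the receptor Ptc restrains Smoothened until the secreted ligand Hedgehog binds it. Smoothened then acts on the zinc finger transcription factor Ci, which switches target genes on or, as a cleaved repressor, off, and ptc is itself a target. Nkd is an antagonist of Wingless (Wnt) signaling that binds Dishevelled and is induced by the pathway it restrains. All of ptc, ci and nkd are segment polarity genes, which pattern each segment of the embryo. Ptr is named for its relation to Ptc and carries a sterol-sensing domain, and it is not an established receptor for Hedgehog.

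Values are the net intensity of a spot (signal minus local background) divided by the median net intensity of the RP49 spots of the same membrane, RP49 being a ribosomal protein gene used as a housekeeping control. A spot was used where its signal reached the local background mean plus 1 background SD. The median RP49 net intensity ranged from 0.0128 to 0.669 on an arbitrary scale, highest on membrane C at S6-7, and 22.7% to 94.4% of the library spots of a membrane passed. Among the control spots, those of Sry-alpha, a gene of cellularization, passed in 0, 16, 17, 4 and 0 of 30 from S2-3 to S10-12, those of tin, a mesoderm gene, in 8, 9, 22, 22 and 17 of 34, and those of fog, which acts in gastrulation, in 3 of 34 at S5 and 0 elsewhere. Of the blank solvent spots, 0.357%, 14.6%, 9.11%, 6.07% and 8.04% passed in the order of the intervals. These came almost only from membranes A to C, where 18.8% of 432 blanks passed at S5, whereas on membrane D no interval had more than 1 of 128.

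Detection separated the genes before any ratio was taken. Neither ci nor Ptr had a spot above background at S2-3, with 0 of 10 spots each, while ptc had 5 of 10 and nkd 6 of 8. Of all library spots at S2-3, 22.7% to 64.8% passed on membranes A to C and 40.8% on D. Later, 42.9% to 80.8% passed on A to C, and 88.1%, 92.2%, 90.2% and 94.4% on D in the order of the intervals. A pass of most or all spots of a gene on D from S5 on is thus near the share of the library. In the 4 later intervals the spots of ptc that passed numbered 7, 9, 9 and 8 of 10. For nkd the numbers were 5, 6, 5 and 2 of 8, and for Ptr 7, 8, 5 and 4 of 10. For ci they were 4 of 10 at each of these intervals, always the 4 spots of membrane D, and 0 of 6 spots passed on membranes A to C at any interval. The background around the ci spots of membranes A to C was 1.18 to 6.06 times the membrane's median background (median 1.99), against 0.443 to 1.80 for ptc, nkd and Ptr. On membrane D the background was 0.591 to 1.66 times the median for ci and 0.684 to 3.46 times for Ptr. The part of the high local background in the missing ci signal was not tested. In whole embryos, fewer cells that express a gene and less of its RNA per cell cannot be told apart, so a count of spots or a ratio covers both.

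**Figure D1:**
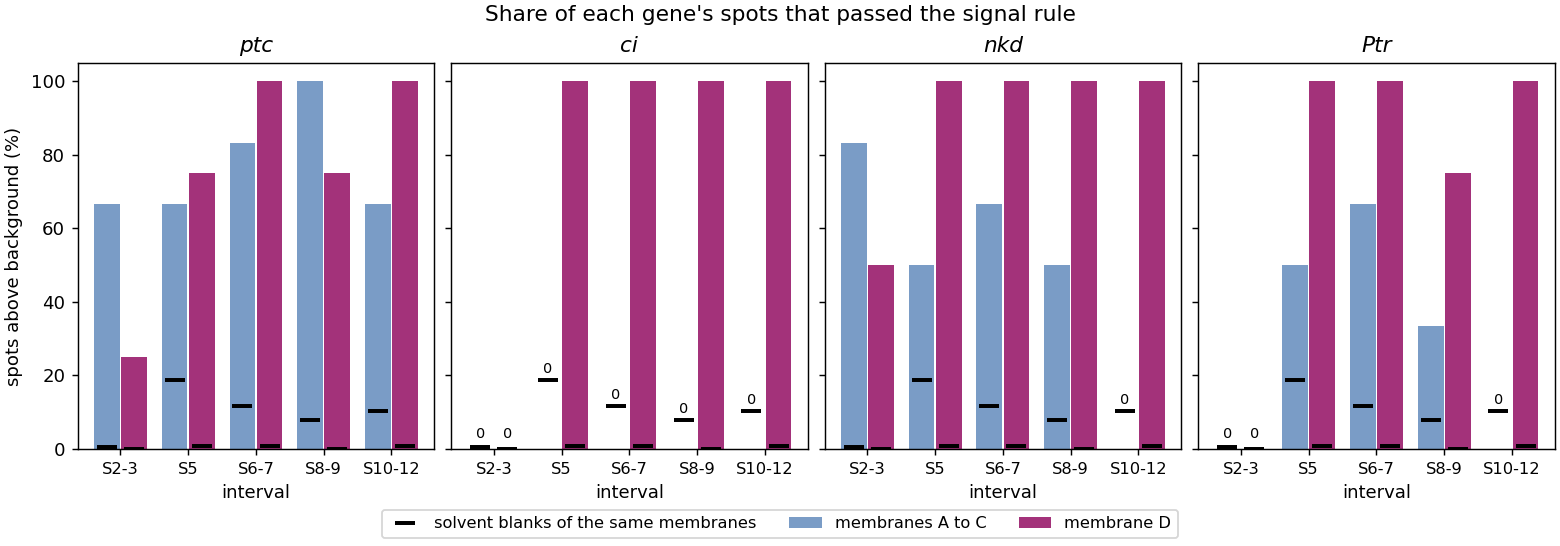
Share of the spots of each gene that passed the signal rule (vertical axis, percent) at the 5 intervals (horizontal axis), on membranes A to C (blue bars) and membrane D (purple bars), with black marks for the blank solvent spots of the same membranes and "0" where no spot of the gene passed. Both ci and Ptr stand at 0 at S2-3, and ci never rises above 0 on membranes A to C, while on membrane D all 4 of its spots passed from S5 on. Of all library spots of membrane D, 40.8% passed at S2-3 and 88.1% to 94.4% later.

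The receptor gene ptc had measurements in every interval, and its lowest mean was at S2-3. At S2-3 its ratio to RP49 was 0.104 on membrane A, 0.134 on B and 0.180 on D, with no spot above background on C. At S5 it was 0.882 on B, 0.255 on C and 0.484 on D, and the duplicates of A differed too much to be used. The values of B and C at S5 each rest on the 1 spot of 2 that passed. The duplicate that did not pass read 0.0259 on B and 0.0510 on C, below the 3 values kept at S2-3. The 3 values kept at S5 lay above the 3 of S2-3. The median tested feature was also 0.83 higher at S5 on the log2 scale. This separation is thus not shown to be particular to ptc. Without the signal rule too few membranes had duplicates close enough for a test at S5, and the highest ptc mean was at S8-9. At S6-7 the ratio was 0.483 on A, 0.265 on B, 0.0912 on C and 0.348 on D. At S8-9 it was 0.461 on A, 0.505 on B, 0.163 on C and 0.450 on D. At S10-12 it was 0.313 on A, 0.105 on C and 0.258 on D, with none on B. Membrane C gave the lowest ptc value in each of the 4 later intervals, and through it S6-7, S8-9 and S10-12 overlapped S2-3.

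**Figure D2:**
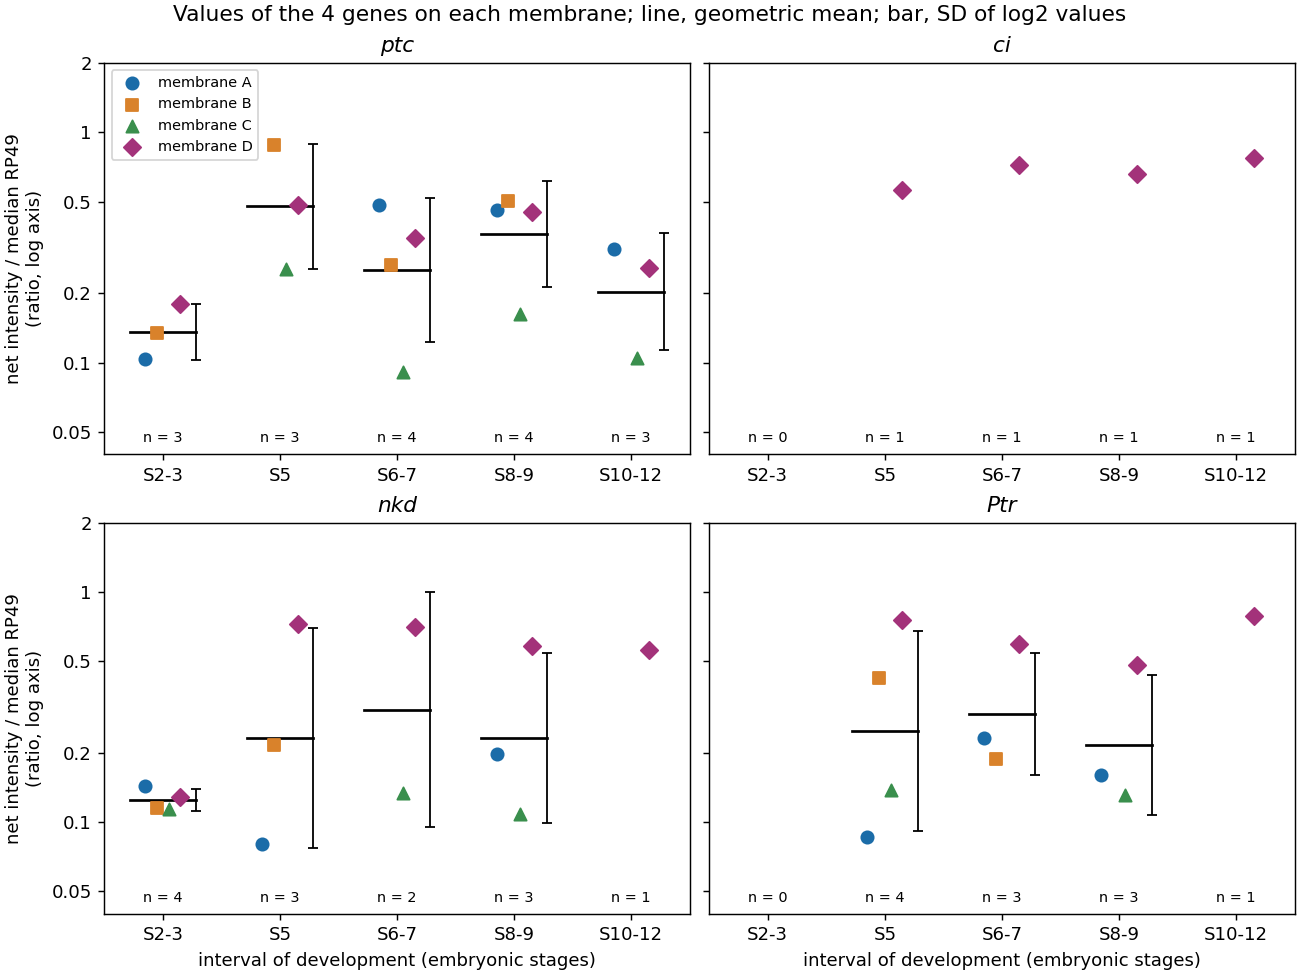
Net intensity over the median RP49 of the same membrane (vertical axis, a ratio on a log axis) of ptc, ci, nkd and Ptr at the 5 intervals (horizontal axis), 1 point for each membrane that measured the gene. Black lines are geometric means and bars the SD of the log2 values, drawn where at least 2 membranes measured the gene. For ptc the 3 membranes of S2-3 lie at 0.104 to 0.180 and those of S5 at 0.255 to 0.882. Points of ci are on membrane D only, and from S5 on nkd and Ptr are highest on membrane D.

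Against S2-3, the log2 mean of ptc was 1.81 higher at S5 (SE 0.84, 95% interval 0.09 to 3.53, 3.51-fold, n = 3 and 3 membranes, limma with Benjamini-Hochberg adjustment over all features, adjusted p = 0.33). The difference was 0.89 at S6-7 (SE 0.79, n = 4, adjusted p = 0.89), 1.41 at S8-9 (SE 0.79, n = 4, adjusted p = 0.37) and 0.58 at S10-12 (SE 0.84, n = 3, adjusted p = 0.65). None of these passed, and only S5 had an unadjusted p under 0.05 (0.039). In the same fit, 5.03% of 159, 4.14% of 169, 3.87% of 155 and 3.25% of 154 features were called higher in the order of the intervals, and 0% lower. The tested features as a whole stood higher than at S2-3, with medians of 0.83, 0.56, 0.95 and 1.09 at the 4 intervals, and ptc was above that median at S5, S6-7 and S8-9 and below it at S10-12. The same medians, when each membrane was divided by the 75th percentile of its library spots, were -0.39, -0.44, -0.34 and -0.12, so a direction against RP49 is not one against the library.

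Membranes of 1 letter tended to deviate together. After each feature's interval mean was taken out, 35 of the 40 same-letter pairs correlated above 0.1 across features. Setting membranes of 1 letter against each other, ptc was higher than at S2-3 in 10 of 10 differences, by 0.51 to 2.72, and above the median feature of that letter in 7 of them. These differences reuse the S2-3 values of A, B and D, so they are not independent. Membrane C, the lowest for ptc at each later interval, had no S2-3 value and is not among them. On membrane B ptc was 2.72 higher at S5, where the median of 85 features was 1.30. That difference was carried by the spot of 0.882 whose duplicate read 0.0259. On A ptc was 2.22 higher at S6-7, 2.15 at S8-9 and 1.59 at S10-12, where the medians were 0.86, 0.88 and 0.91. On D, where the medians were 1.40, 1.19, 1.50 and 1.64, ptc was higher by 1.42, 0.95, 1.32 and 0.51. These D differences set 1 ptc clone at S2-3 against the mean of 2 clones later. The added clone was the dimmer at each later interval, which lowers the differences. They therefore do not place ptc against the typical feature of D, and the count of 7 includes D.

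**Figure D3:**
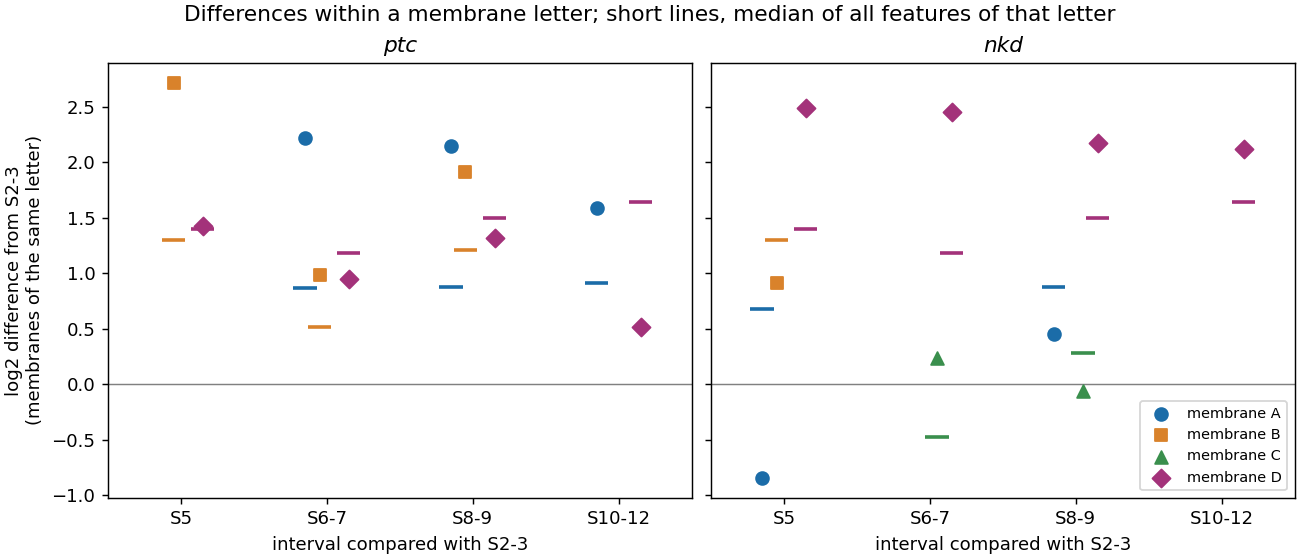
Differences from S2-3 (vertical axis, log2 of the ratio to RP49) between membranes of the same letter at the 4 later intervals (horizontal axis) for ptc and nkd, with short lines of the same color for the median of all features on that letter. All 10 points of ptc are above 0, from 0.51 to 2.72, and reuse the S2-3 values of A, B and D. For nkd the 4 points of membrane D lie between 2.12 and 2.49 and those of A, B and C between -0.84 and 0.92.

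In the fit that takes the letter as a replicate block, ptc passed at all 4 intervals. The differences were 2.36 at S5 (SE 0.43, limma adjusted p = 2.3e-04), 1.29 at S6-7 (SE 0.39, adjusted p = 0.019), 1.81 at S8-9 (SE 0.39, adjusted p = 8.1e-04) and, for S10-12, 1.12 (SE 0.43, adjusted p = 0.036). In that fit 42.1%, 25.4%, 45.8% and 45.5% of all tested features were called higher and 1.26%, 0%, 0.645% and 2.6% lower, so ptc shared its call with much of the library. The calls at S5 and S8-9 held without any 1 of the letters (S5 2.12 to 2.89, S8-9 1.60 to 2.09). At S6-7 the call was lost without membrane A (0.89, adjusted p = 0.30) or B (1.38, adjusted p = 0.070), and at S10-12 without A (0.85, adjusted p = 0.24), B (1.09, adjusted p = 0.091) or C (1.07, adjusted p = 0.063). The calls also moved with the scaling. With the block and the geometric mean of RP49, actin and tubulin, only S5 passed (1.77, adjusted p = 0.018), where 20.1%, 16.6%, 12.3% and 23.6% of features were called higher. With the block and quantile normalization or the 75th percentile of the library spots, ptc passed at no interval, and S5 stood at 1.05 (adjusted p = 0.051) and 0.71 (adjusted p = 0.20). Those fits called 7.55%, 6.51%, 12.9% and 11% of features higher with quantiles, and 6.29%, 5.33%, 5.81% and 5.84% with the percentile. Relative to the median feature, ptc at S5 was higher by 0.73 to 2.10 under all 6 scalings fitted without the block, at S6-7 by 0.22 to 1.43 and at S8-9 by 0.37 to 1.50. At S10-12 it was below the median under 5 of 6, the exception being scaling to the dap spike.

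The order of the ptc means was S5 (-1.07 on the log2 scale), S8-9 (-1.47), S6-7 (-1.99), S10-12 (-2.30) and S2-3 (-2.88). No neighbors in this order were separated: S8-9 stood 0.40 below S5 (SE 0.79), S6-7 0.52 below S8-9 (SE 0.73), S10-12 0.31 below S6-7 (SE 0.79), and S2-3 0.58 below S10-12 (SE 0.84). Between the later intervals, 12 tests were possible for the 4 genes and 0 passed in limma, with 0 at an unadjusted p under 0.05 and adjusted p from 0.945 to 1.00. Over all features these comparisons called 0% higher in each, and lower 1.35% (S6-7 against S5), 0.485% (S8-9 against S5), 0.962% (S10-12 against S5) and 0% in the other 3. With the letter as a block 0 of the 12 passed as well, the nearest being ptc at S10-12 against S5 (-1.24, SE 0.43, limma adjusted p = 0.080). That fit called, in the same order of comparisons from S5, 0.45%, 3.4% and 1.92% higher and 1.8%, 1.94% and 3.37% lower. From S6-7 it called 0.472% higher at S8-9, and 4.72% higher and 1.42% lower at S10-12, and from S8-9 to S10-12 it called 0%. Within letters, ptc was lower at S6-7 than at S5 in 3 of 3, by 0.48 to 1.74. There the median features changed by -0.30 on B, -0.52 on C and -0.08 on D. The ptc values of B and C at S5 rest on 1 spot each. From S8-9 to S10-12 ptc was lower in 3 of 3, by 0.56 to 0.81, where the median features changed by -0.06 on A, -0.41 on C and 0.01 on D.

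The transcription factor gene ci was measured only on membrane D, at 1 membrane per interval, so its values have no replicate check. Its ratio to RP49 from S5 to S10-12 was 0.563, 0.720, 0.660 and 0.776. These 4 values lay within a log2 range of -0.83 to -0.37. At S2-3 the gene has only a nominal floor, taken on membrane D. The floor is the higher of the lowest passing library signal and the mean of the gene's own spots. It is not an upper limit, as 1 ci spot that did not pass there read 0.172 times RP49, above the floor. Over this floor ci was 5.92-fold higher at S5 (2.56 on the log2 scale) and 7.57-fold at S6-7 (2.92). It was 6.94-fold higher at S8-9 (2.80) and 8.16-fold at S10-12 (3.03), and the true changes could be smaller. The median feature of membrane D was higher than at S2-3 by 1.40, 1.19, 1.50 and 1.64. With membranes scaled to the 75th percentile of their library spots, the log2 differences of ci from the floor were 0.72, 1.14, 0.79 and 1.09. Without the signal rule, which lets in spots of membranes A to C, ci had its highest mean at S2-3, and the differences from it were -2.10, -0.97, -0.36 and -0.63, so the direction for ci holds only for spots above background.

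The 2 ci clones on membrane D took different courses. The clone printed on every membrane had ratios to RP49 of 0.533, 0.421, 0.452 and 0.348 from S5 to S10-12. The clone printed on D alone had 0.592, 1.02, 0.868 and 1.20. They were close at S5 and farthest apart at S10-12, where the first had its lowest value and the second its highest. Every value is a mean of 2 spots whose coefficient of variation was at most 0.358. The flat course of the ci average is thus the mean of a clone that ended lower and one that ended higher.

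**Figure D4:**
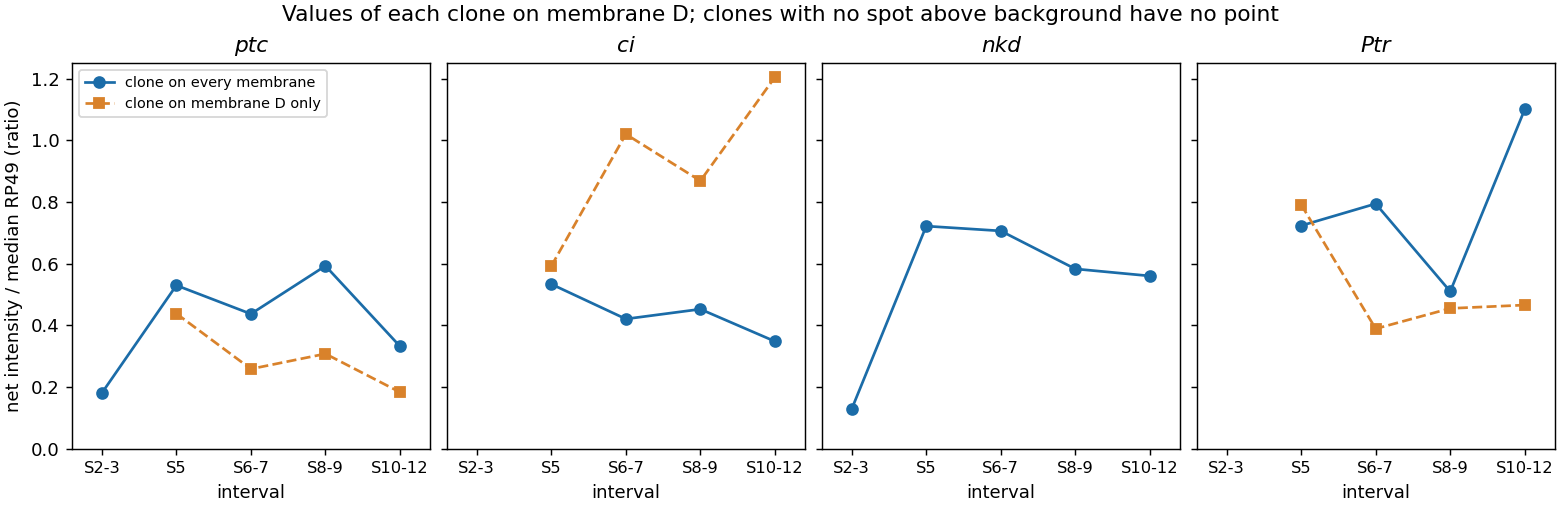
Ratio of net intensity to the median RP49 (vertical axis) of each clone of ptc, ci, nkd and Ptr on membrane D at the 5 intervals (horizontal axis), with solid lines for the clone printed on every membrane and dashed lines for the clone printed on D only. For ci the lines part after S5 and end at 0.348 and 1.20, and for Ptr they end at 1.10 and 0.466, while both ptc clones are lower at S10-12 than at S8-9.

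The ptc clones on D had partly similar courses, and their highest values were at S8-9 and at S5. The clone present on every membrane gave 0.180 at S2-3 from 1 spot, and then 0.530, 0.437, 0.593 and 0.332. The clone present on D alone had no spot above background at S2-3 and gave 0.438, 0.259, 0.308 and 0.183 later. Both values were higher at S8-9 than at S6-7 and lower again at S10-12. For the clone on D alone, the values of S5 and S8-9 each rest on 1 spot, and the duplicates read 0.153 and 0.0669. Its 2 spots at S6-7 read 0.277 and 0.240, so its rise at S8-9 depends on leaving out the low duplicate. The ptc mean of membrane D at S2-3 therefore rests on 1 clone and those of the later intervals on 2.

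The Wnt antagonist gene nkd was represented by 1 clone, and it was the only one of the 4 genes measured on all membranes of S2-3. The ratio to RP49 was 0.144 on A, 0.115 on B, 0.114 on C and 0.129 on D at S2-3. At S5 it was 0.0803 on A, 0.217 on B and 0.722 on D. At S6-7 it was 0.134 on C and 0.706 on D, with the duplicates of A too far apart, at S8-9 0.197 on A, 0.109 on C and 0.583 on D, and at S10-12 0.560 on D alone. The later values of membrane D all lay above 0.5, while those of the other membranes reached 0.217 at most and overlapped S2-3. The SD of the log2 values was 0.16 at S2-3 and 1.59, 1.70 and 1.23 at S5, S6-7 and S8-9.

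Against S2-3, nkd was higher by 0.90 at S5 (SE 0.87, n = 4 and 3, limma adjusted p = 0.61), 1.30 at S6-7 (SE 0.99, n = 4 and 2, adjusted p = 0.88) and 0.90 at S8-9 (SE 0.87, n = 4 and 3, adjusted p = 0.55). None passed, nor did any with the letter as a block (0.65, 1.09 and 0.90, adjusted p = 0.33, 0.22 and 0.17). Scaled to the 75th percentile the differences at S5 and S8-9 were -0.66 and -0.39, so nkd has no settled direction at those intervals. On membrane D it was higher than at S2-3 by 2.49, 2.46, 2.18 and 2.12 at the 4 intervals, where the median features were 1.40, 1.19, 1.50 and 1.64. On A it was 0.84 lower at S5 and 0.45 higher at S8-9, on B 0.92 higher at S5, and on C 0.24 higher at S6-7 and 0.06 lower at S8-9. The letters thus disagreed about nkd in size and at S5 and S8-9 in sign. The D value of S2-3 came from 1 spot, and the other D values from both spots with coefficients of variation of at most 0.0515. The values behind the negative differences, on A at S5 and on C at S2-3 and S8-9, also came from 1 spot each, except the A value of S2-3.

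The gene Ptr was absent above background at S2-3 on all 4 membranes and then gave a usable value on 4, 3, 3 and 1 membranes at the later intervals. Its ratio to RP49 at S5 was 0.0859 on A, 0.422 on B, 0.137 on C and 0.757 on D. At S6-7 it was 0.233 on A, 0.187 on B and 0.591 on D, and the duplicates of C both passed but differed too much. At S8-9 it was 0.160 on A, 0.131 on C and 0.482 on D, and at S10-12 0.783 on D. Membrane D was the highest in each interval with more than 1 membrane. On the other membranes the values of S5 overlapped those of S6-7 and of S8-9, while the 2 of S6-7 lay above the 2 of S8-9. On membranes A to C, 7 of the 7 values kept rest on 1 of the 2 duplicate spots. At S5 3 of 6 Ptr spots passed there, beside 18.8% of the blanks, and at S10-12 0 of 6, whereas on D 4 of 4 passed at S5, S6-7 and S10-12 and 3 of 4 at S8-9.

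Over the S2-3 floor on membrane D, taken as for ci, Ptr was 10.1-fold higher at S5 (3.33 on the log2 scale) and 7.86-fold at S6-7 (2.97). It was 6.41-fold higher at S8-9 (2.68) and 10.4-fold at S10-12 (3.38). The floor is not an upper limit here either, as 1 Ptr spot that did not pass read 0.0877 times RP49, above it. Scaled to the 75th percentile, the log2 differences from the floor on D were 1.49, 1.20, 0.68 and 1.44. Each remained above 0, and no test can be attached to them. Between S5 and S6-7 the Ptr means differed by 0.25 (SE 0.87) and between S6-7 and S8-9 by 0.45 in the other direction (SE 0.93), with no order among them. The Ptr clones also diverged on D: from S5 to S10-12 the clone on every membrane gave 0.723, 0.794, 0.510 and 1.10, and the clone on D alone 0.791, 0.389, 0.455 and 0.466. The high S10-12 value of Ptr was that of 1 clone, whose spots had a background of 2.36 times the membrane's median there and 3.46 times at S8-9, and the part of this background in the value was not tested.

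Side by side on membrane D, the only one that measured all 4 genes at the later intervals, the changes from S5 to S10-12 were 0.91 lower for ptc, 0.37 lower for nkd, 0.05 higher for Ptr and 0.46 higher for ci, where the median of 283 features was 0.13 higher. Of these features, 15.9% changed by less than ptc and 59.7% by less than ci in the signed order. The ci and Ptr values average clones that moved in opposite directions. From S5 to S10-12 the clone on every membrane went from 0.533 to 0.348 for ci and from 0.723 to 1.10 for Ptr. The clone on D alone went from 0.592 to 1.20 for ci and from 0.791 to 0.466 for Ptr. The places of ci and Ptr beside ptc thus depend on averaging the clones.

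Of 23 genes listed for the Hedgehog pathway, 4 were printed: ptc, ci, rdx and skpA. The gene skpA, a subunit of ubiquitin ligases of the SCF type, one of which processes Ci, passed the test in 3 of 4 comparisons. In that fit 5.03%, 4.14%, 3.87% and 3.25% of all tested features were called higher in the order of the intervals. The skpA values are given against RP49 only. It was 0.101 and 0.104 times RP49 on A and B at S2-3 and 0.436 to 1.92 times on A, B and C at S5, with no overlap. At S6-7 it was 0.954 to 2.22, at S8-9 1.41 to 2.35, and at S10-12 0.746 and 1.02 on A and B. It was higher by 3.33 at S5 (SE 0.94, limma adjusted p = 0.026), 4.02 at S6-7 (SE 0.94, adjusted p = 0.010) and 4.26 at S8-9 (SE 0.94, adjusted p = 0.0046). The difference of 3.09 at S10-12 did not pass (SE 1.03, limma adjusted p = 0.14). With the letter as a block skpA passed there too (limma adjusted p = 7.3e-04), in a fit that called 45.5% of 154 features higher. The gene rdx (roadkill), whose product targets Ci for degradation, could not be tested, as only membrane D measured it after S2-3. On that membrane its ratio to RP49 was 0.533 at S2-3 and 0.356, 0.747, 1.05 and 1.77 later. In log2 this was -0.91 at S2-3 and -1.49, -0.42, 0.07 and 0.83 later. The median feature of D was higher than at S2-3 by 1.40, 1.19, 1.50 and 1.64. At S2-3 rdx also read 0.371 on A and 0.406 on B, where no later value was kept.

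Of 31 genes listed for Wnt signaling, 4 were printed: nkd, pan, drl and nmo. None of pan, the TCF transcription factor, drl, a receptor tyrosine kinase-like receptor for Wnt5, and nmo, the Nemo kinase, could be tested against S2-3, where each was measured on 1 membrane. Between the later intervals, 0 of the 3 passed in limma. The differences of the greatest size were 1.27 for drl from S6-7 to S10-12 (SE 0.83, adjusted p = 0.95) and 1.24 for nmo from S5 to S8-9 (SE 0.91, adjusted p = 1.00). The ratio of drl to RP49 was 0.128, 0.144, 0.0474 and 0.371 on A, B, C and D at S6-7 and 0.299, 0.349, 0.107 and 0.984 at S10-12, higher on every letter though the groups overlapped. With the letter as a block this was the one call among these genes (1.27, SE 0.34, limma adjusted p = 0.025), in the fit that called 4.72% of 212 features higher.

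Of 24 segmentation genes listed, gsb, slp1, odd, h, Kr and hth were printed, and 2 or 3 of them could be tested against S2-3 in each interval. None passed without the block. With it, Kr passed at all 4 intervals, hth, a homeobox gene, at S5, S8-9 and S10-12, and slp1 at S6-7, in the fit that called 42.1%, 25.4%, 45.8% and 45.5% of all features higher at the 4 intervals. The gap gene Kr was 2.46 higher at S10-12 (SE 1.21, limma adjusted p = 0.31, with the block 3.07 and adjusted p = 3.0e-06) and the pair-rule gene slp1 2.26 higher at S6-7 (SE 0.99, adjusted p = 0.38, with the block 1.91 and adjusted p = 0.048). The ratio of Kr to RP49 was 0.0835, 0.105 and 1.07 on A, B and D at S2-3 and 0.626, 1.75, 0.224 and 7.25 on A, B, C and D at S10-12, higher on each shared letter while the groups overlapped. The medians of the tested segmentation genes were 0.93, 0.82, 1.53 and 2.05 at the 4 intervals, beside 0.83, 0.56, 0.95 and 1.09 over all features. Of 7 genes listed with a patched or sterol-sensing domain, only ptc and Ptr were printed.

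Among 138 features measured on at least 2 membranes in every interval, those whose 5 interval means were most like those of ptc were Sxl, the switch gene of sex determination (Pearson's r = 0.982), crp, which encodes a bHLH-ZIP transcription factor (r = 0.972), and SP1029 (r = 0.951). In the order of the intervals, the log2 means of Sxl were -2.90, -0.92, -1.96, -1.55 and -2.04. These are descriptions over 5 points that share the membranes and the RP49 scaling. The other 3 genes were not measured on 2 membranes in every interval and were not ranked.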

How the data were processed

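Spot intensities were deposited by the authors, who measured them in VersArray Analyzer: the signal, the background around the spot with its SD, and their difference, without normalization. The 2 labeling events of the probes are not assigned to membranes. A deposited table of normalized values without gene names was not used.

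A spot had to reach the mean of its background plus 1 SD with a net signal above 0. Clones whose duplicates had a coefficient of variation over 0.5 were dropped, and the rest averaged and divided by the membrane's median RP49. The study scaled to RP49 together with dap, a spike that is not printed on membrane D, so dap alone was an alternative for A to C. Its qcom filter and SAM test were not run. On 306 features of 20 membranes, log2 values were fitted in R 4.3.3 by limma 3.58.1 (functions lmFit and eBayes). A feature was tested where 2 membranes measured it in both intervals, p-values were adjusted over all features of a comparison, and the call was an adjusted p under 0.05. The fits were tested on simulated data. Python 3.11.15, pandas 2.3.3, NumPy 2.4.6 and matplotlib 3.10.9 were used for tables and plots. The number of membranes limits the precision. As alternatives, 5 other scalings, normexp, no signal rule or one of 2 SDs, no duplicate filter, clone medians, a minimum of 3 membranes, a fit of just the intervals compared, leaving out each letter, and the letter as a replicate block were run. The sources do not say what the letter stands for. The paper describes membranes printed with either the complete subtracted library or non-redundant cDNAs, and does not assign these to letters. Membrane D was printed differently from A to C, with added clones of ptc, ci and Ptr and no dap spots. A difference between D and the other letters cannot be told apart from one between prints. Here the letter served as a batch term, and no embryos are taken as paired by it.

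The 4 genes and the gene lists were chosen with earlier results of these data known. Named are the 4 genes, the printed genes of the lists (with values for those that passed a test or, where none did, the 2 with the largest differences), and the 3 features most like a gene over the interval means. Values of rdx, and the calls of hth, fall outside this rule and were chosen after they were seen.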

Additional observations from a re-analysis of the deposited data

Results flagged for a closer look

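One group of membranes had a value far from the others. For ptc at S8-9, membrane C gave a ratio to RP49 of 0.163, against 0.461, 0.505 and 0.450 on A, B and D. The gap from C to the nearest membrane was 0.899 of the whole log2 range, over Dixon's critical value at the 95% level, and chance gives such a gap in about 1 of 20 groups. Of the 4 groups of 4 membranes available for these genes, this was the 1 that passed. Both duplicate spots of ptc passed there, with a coefficient of variation of 0.332. Membrane C was also the lowest for ptc at S5, S6-7 and S10-12.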

How the results depend on the processing

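Of the 7 differences of ptc and nkd from S2-3, 0 passed without the letter as a block under every alternative run, and 4 passed with it. With the block joined to other choices, which were added after the data were seen, 1 passed with RP49, actin and tubulin, 0 with quantiles or the 75th percentile, and 2 to 4 without 1 of the letters (3 without A, 2 without B, 3 without C, 4 without D), among them nkd at S5 without A (1.37, limma adjusted p = 0.049). Between later intervals 0 of 12 passed, except 1 with the block and quantiles (ptc at S10-12 against S5, -1.08, adjusted p = 0.047) and 1 with the block and without D (ptc at S6-7 against S5, -1.37). Same-letter membranes correlated between -0.06 and 0.73. Among intervals measured on at least 2 membranes, the highest mean was at S5 for ptc and at S6-7 for nkd and Ptr. At S10-12 only membrane D measured nkd and Ptr. Its log2 values, -0.84 and -0.35, were above the S6-7 means of -1.70 and -1.76. These intervals of the highest mean held for 1 of 3 genes with dap or normexp. They held for 2 of 3 with quantiles, no duplicate filter or the block (Ptr at S5 in each). They held for 2 of 3 without the signal rule (ptc at S8-9), and for 1 to 3 without 1 of the letters (1 without A or C). The signal rule of 2 SDs gave no value for nkd, and the other scalings and clone medians kept all 3.

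Directions changed as follows, and the cause was not tested. With the 75th percentile, the differences from S2-3 were -0.66 (nkd, S5), -0.39 (nkd, S8-9) and -0.27 (ptc, S10-12), and with the block added -0.63, -0.39 and -0.13. With quantiles they were -0.091, -0.088 and -0.19, and with the block added -0.094, -0.14 and -0.033. With the block, RP49, actin and tubulin, nkd at S8-9 was -0.0037, and with the block and without D, nkd at S5 was -0.091. Against S5, nkd at S6-7 was -0.29 with normexp, -0.36 to 0.35 with 1 letter left out (lowest without A), and -0.13 with the block and without A. Ptr at S6-7 was -2.05 with dap, -0.18 with quantiles, -0.35 with normexp, -0.020 without the duplicate filter, -0.019 with the block, -0.13 with the block and quantiles, and -0.084 to 0.84 with 1 letter left out (below 0 without A or C), and with the block -0.66 and -0.030 without A and C. At S8-9 against S5, nkd was 0.40 with the mean of RP49, 0.27 with the percentile, 0.0028 with quantiles, 0.25 with the block, 0.23 with the block and percentile, and -0.65 to 0.54 with 1 letter left out (above 0 without C or D), and with the block 0.32, 0.48 and 0.54 without B, C and D. Ptr there was 0.38 with the mean of RP49 and -0.49 to 0.060 with 1 letter left out (above 0 without B), and with the block 0.060 and 0.099 without B and D. At S8-9 against S6-7, ptc was -0.055 with RP49, actin and tubulin, with and without the block, and -0.45 with dap, nkd 0.015 with normexp, and Ptr 1.02 with dap and 0.13 with normexp, and with the block 0.17 and 0.0081 without A and D. At S10-12, ptc was 0.52 above S6-7 with dap and 0.22 with 2 background SDs, and 0.98 above S8-9 with dap. The other 444 values kept their direction and side of the threshold or stayed within their limits.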
